A study of Homo sapiens with 12 samples.

Results

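The genes described here are 6 adenylyl cyclases (ADCY1, ADCY3, ADCY4, ADCY6, ADCY7 and ADCY9), the cAMP-activated exchange factor RAPGEF3, the phosphodiesterases PDE4B and PDE4D, and the transcription factor CREM. These 10 genes, of 36866 in the deposited table, were taken by name. They were selected on knowledge of their FPKM in all 4 groups of line and treatment, by no stated threshold, so their values are given as a description, with counts of calls but no p-value for any of the 10. The study asked how honokiol, a biphenolic compound from magnolia bark, acts on acute myeloid leukemia (AML) cells. THP-1 and U-937 are established human AML cell lines of monocytic character, both labelled as having a complex karyotype. Each line was given honokiol or DMSO for 24 h, and poly(A) mRNA was sequenced, giving 4 groups of 3 libraries. The labels list honokiol at 20 and 35 µM and DMSO at 0.1% without saying which dose each line received, so a difference between the lines in their response cannot be told apart from a difference in dose. Nothing in the labels says that the 3 libraries of a group came from separate cultures, so errors and p-values measure only the spread between these libraries.

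Cyclic AMP (cAMP) is made from ATP by adenylyl cyclases, which sit in the plasma membrane and are switched on by the G protein Gs downstream of receptors for prostaglandin E2, adenosine and histamine. It activates protein kinase A, which phosphorylates CREB, and, in parallel, the exchange factors of the EPAC family, which load the small GTPase Rap1 with GTP. Phosphodiesterases hydrolyse cAMP, and the PDE4 enzymes are the main cAMP-specific ones of monocytes, where cAMP is best known for damping inflammatory cytokine output. Cyclase isoforms differ in control. ADCY1 and ADCY3 respond to calcium and calmodulin, ADCY6 is inhibited by calcium, ADCY4 and ADCY7 can be stimulated by G protein βγ subunits, and ADCY9 is the isoform least sensitive to forskolin.

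The estimated counts summed to between 57406966 and 75065752 per library. Replicates correlated at r of 0.958 to 0.979 (log2 CPM). Among low counts the value 4 stood in 17264 cells of the table, against 10103 for 1, 9533 for 2, 6764 for 3 and 4016 for 5. The counts are thus estimates that need not equal whole fragments, and the sums may overstate the depth. Mitochondrially encoded genes took 13.7% of counts in THP-1 DMSO replicate 1 and 12.6% in U-937 DMSO replicate 1, against 5.61% to 7.55% elsewhere. The members' log2 values without these libraries are given beside or after those with them, and the pathway genes are given with them alone. Of 10 myeloid markers, 10 reached an FPKM of 1 in every THP-1 library and 8 in every U-937 library, the exceptions in U-937 being MPO and CD14. The T cell and erythroid marker sums stayed at or under 0.31 FPKM, and the fibroblast marker list gave up to 4.20 FPKM in THP-1, mostly PDGFRB.

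The lines differed in the shares of the cyclase mRNAs. FPKM is a fragment count scaled to the length of the transcript and the size of the library, so levels can be compared between genes. In bulk RNA fewer cells that express a gene and less RNA per cell cannot be told apart. Over the 10 cyclase genes of the table, the summed level was 24.8 ± 3.31 FPKM in DMSO-treated THP-1 cells and 39.2 ± 0.392 FPKM in DMSO-treated U-937 cells (mean ± SD, n = 3). ADCY7 made up 50.1% of that sum in THP-1 and 20.1% in U-937. ADCY3 made up 18.7% in THP-1 and 58.3% in U-937. Genes on the opposite strand share exonic bases with ADCY3 and ADCY7, as given below, and what they add to these shares was not tested. ADCY6, 10.3% of the THP-1 sum, was close to nothing in U-937, at 0.0255%. With honokiol the THP-1 sum was 29.4 ± 1.20 FPKM, in which ADCY7 held 35.7%, ADCY6 18.1% and ADCY1 15.5%, the last up from 5.97% with DMSO. The U-937 sum with honokiol was 36.3 ± 3.92 FPKM, with ADCY3 at 49.1%, ADCY7 at 25.7% and ADCY4 at 3.98%, against 1.47% for ADCY4 with DMSO. The other 4 cyclases of the table, ADCY2, ADCY5, ADCY8 and ADCY10, were listed at or near 0, the highest being ADCY5 with a mean of 0.0667 FPKM in DMSO-treated THP-1 cells.

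**Figure D1:**
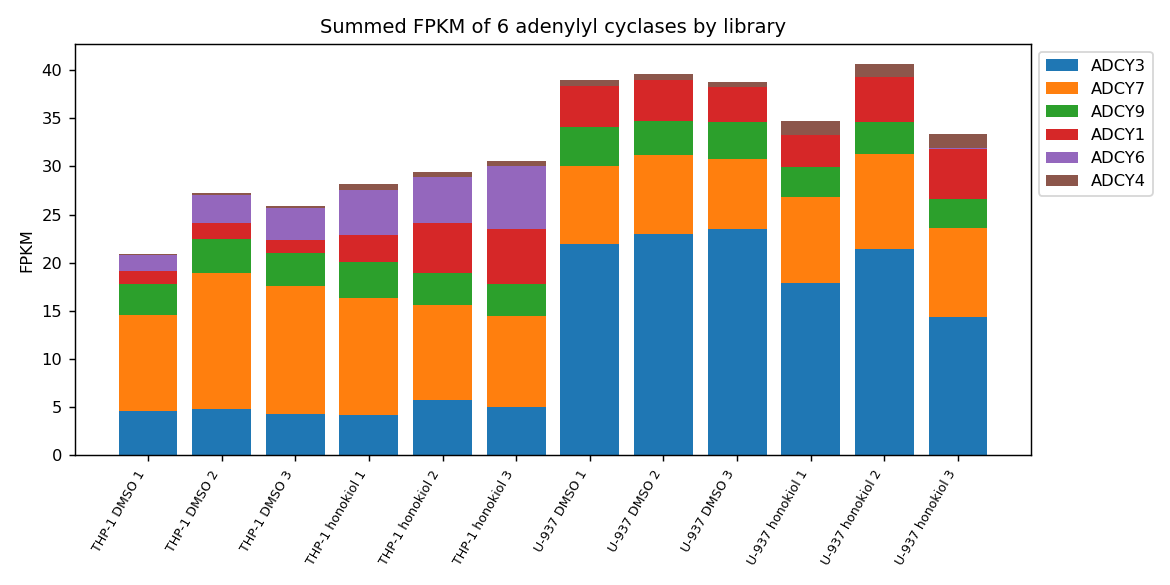
Stacked FPKM (vertical axis) of the 6 cyclases in each of the 12 libraries (horizontal axis), 1 bar per library and 1 colour per gene. ADCY3 is the tallest segment in every U-937 library and ADCY7 in every THP-1 library, and the ADCY6 segment is wide in THP-1 libraries and at most a line in U-937 libraries.

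ADCY1, a calcium- and calmodulin-stimulated cyclase best known from neurons, lies at chr7:45574140-45723116 on the plus strand (GRCh38). In THP-1 cells its FPKM was 1.37, 1.64 and 1.40 with DMSO and 2.82, 5.24 and 5.75 with honokiol. The 3 honokiol libraries all lay above the 3 DMSO libraries, and honokiol replicate 1 was the lowest of its group. The ratio of means was 3.13 and the log2 fold change by edgeR was 1.59 ± 0.26 (SE), ranging from 1.41 to 1.85 when a library was left out. Genes were tested where at least 3 libraries of a comparison reached 0.5 FPKM, the limit on FPKM. In U-937 cells the FPKM was 4.25, 4.23 and 3.60 with DMSO and 3.28, 4.69 and 5.24 with honokiol. These groups overlapped, with a log2 fold change of 0.04 ± 0.20. Thus honokiol-treated THP-1 cells (4.60 FPKM), honokiol-treated U-937 cells (4.40 FPKM) and DMSO-treated U-937 cells (4.03 FPKM) followed each other with overlapping libraries, and only DMSO-treated THP-1 cells (1.47 FPKM) stood below. The upstream of 2 RefSeq promoter windows of ADCY1 (GRCh38.p14, each from 250 bases before to 50 bases after a start site) is shown because ADCY1 had the largest log2 fold change of the tested members in THP-1. The capitals mark TGACG, the core of the cAMP response element (CRE) to which CREB and CREM bind. That core was found on either strand in 24.6% of 35116 windows of the same length.
ADCY1 chr7:45573890-45574189 (plus strand): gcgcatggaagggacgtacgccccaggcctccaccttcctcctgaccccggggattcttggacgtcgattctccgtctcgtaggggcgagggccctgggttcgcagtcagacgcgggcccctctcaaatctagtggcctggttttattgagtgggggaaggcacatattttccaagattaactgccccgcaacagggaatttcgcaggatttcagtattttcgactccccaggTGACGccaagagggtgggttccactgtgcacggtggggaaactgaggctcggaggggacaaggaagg

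ADCY3, a widely expressed cyclase known from olfactory signalling and body weight control, lies at chr2:24819169-24919839 on the minus strand. It was the highest of the 10 genes in U-937 cells, with FPKM of 21.95, 22.94 and 23.52 with DMSO and 17.94, 21.45 and 14.40 with honokiol. All 3 honokiol libraries were below the DMSO libraries (log2 fold change -0.44 ± 0.15), though the honokiol libraries spread more widely. In THP-1 cells it stood at 4.60, 4.79 and 4.30 with DMSO and 4.20, 5.78 and 5.04 with honokiol, which overlapped. The level with DMSO was 5.00 times as high in U-937 as in THP-1 (log2 difference 2.26 ± 0.15, and 2.26 ± 0.15 also without DMSO replicate 1 of both lines). CENPO, on the opposite strand, shares 24.6% of the exonic bases of ADCY3 in GENCODE 29, and whether the counting used strand is not stated. With DMSO, CENPO too was higher in U-937 than in THP-1, at 6.39 and 3.83 FPKM without overlap (log2 difference 0.67 ± 0.28). With honokiol in U-937 it stood at 8.39 FPKM, with overlapping libraries (0.31 ± 0.23). What this overlap adds to the ADCY3 values was not tested.

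ADCY7, the main cyclase of many blood cells, lies at chr16:50246137-50318135 on the plus strand. In THP-1 cells it had 9.92, 14.12 and 13.31 FPKM with DMSO and 12.11, 9.87 and 9.39 FPKM with honokiol. The groups overlapped through DMSO replicate 1, the low library of its group and the one with many mitochondrial counts. The log2 fold change was -0.30 ± 0.16 with that library and -0.40 ± 0.14 without it. In U-937 cells the values were 8.12, 8.29 and 7.22 FPKM with DMSO and 8.92, 9.80 and 9.18 FPKM with honokiol, with no overlap but a log2 fold change of only 0.15 ± 0.13. With DMSO, U-937 was lower than THP-1 in all libraries (log2 difference -0.70 ± 0.17). BRD7, on the opposite strand, shares 41.6% of the exonic bases of ADCY7. Its mean level was 9.54 FPKM with DMSO and 8.64 FPKM with honokiol in THP-1, and 9.02 and 8.68 FPKM in U-937. The log2 fold change of BRD7 was -0.21 ± 0.17 for THP-1 cells and -0.15 ± 0.12 for U-937 cells. What this overlap adds to the ADCY7 values was not tested.

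ADCY6, a calcium-inhibited cyclase studied mostly in heart, lies at chr12:48766194-48789037 on the minus strand and showed the widest gap between the lines. THP-1 cells had 1.63, 2.87 and 3.29 FPKM with DMSO and 4.71, 4.79 and 6.55 FPKM with honokiol. No library overlapped, the ratio of means was 2.06 and the log2 fold change was 1.0 ± 0.24. The lowest DMSO value was that of replicate 1, and without it the log2 fold change was 0.78 ± 0.18. In U-937 cells the gene was listed at 0.01 FPKM in all 3 DMSO libraries, from counts of 4, 10 and 4, and at 0.03, 0.01 and 0.04 FPKM with honokiol, from counts of 17, 4 and 24. At such low counts a change with honokiol was not measurable there. THP-1 counts with DMSO were 1007, 1793 and 1994. The fitted log2 difference between the lines, -8.13 ± 0.45, rests on the few U-937 counts and is no measure of its exact size.

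ADCY4, a cyclase that G protein βγ subunits can stimulate, lies at chr14:24318349-24335071 on the minus strand. It was low in both lines and higher with honokiol in both. In U-937 cells its FPKM was 0.59, 0.59 and 0.55 with DMSO and 1.41, 1.37 and 1.51 with honokiol. The libraries within each group were tightly placed and the groups far apart, with a ratio of means of 2.48 (log2 fold change 1.21 ± 0.19). In THP-1 cells it was 0.18, 0.26 and 0.19 FPKM with DMSO and 0.57, 0.46 and 0.43 FPKM with honokiol, again without overlap and with a ratio of 2.32. Only 1 of these 6 libraries reached 0.5 FPKM, so ADCY4 was not tested in THP-1, and the fit without a limit gave 1.16 ± 0.29. THP-1 cells with honokiol and U-937 cells with DMSO overlapped at about the same level, 0.487 and 0.577 FPKM. AL096870.1, a protein-coding gene on the same strand, shares 7.09% of its exonic bases and was at or below a mean of 0.0967 FPKM in all groups. The ADCY4 window is shown because this cyclase was higher with honokiol in both lines, and no capitals appear in it since it holds no TGACG on either strand.
ADCY4 chr14:24335022-24335321 (minus strand): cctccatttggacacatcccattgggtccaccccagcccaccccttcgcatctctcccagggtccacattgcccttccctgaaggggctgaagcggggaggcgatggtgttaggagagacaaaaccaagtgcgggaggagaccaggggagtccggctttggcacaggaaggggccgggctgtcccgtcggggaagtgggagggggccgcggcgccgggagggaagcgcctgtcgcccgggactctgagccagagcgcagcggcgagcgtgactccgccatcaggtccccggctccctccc

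ADCY9, at chr16:3953387-4116442 on the minus strand, a broadly expressed isoform, kept within 3.0 to 4.05 FPKM in all 12 libraries. It had 3.25, 3.57 and 3.37 FPKM in THP-1 with DMSO and 3.72, 3.23 and 3.35 FPKM with honokiol. In U-937 it had 4.05, 3.49 and 3.91 FPKM with DMSO and 3.10, 3.36 and 3.0 FPKM with honokiol. The THP-1 groups overlapped (log2 fold change -0.04 ± 0.13), while the U-937 honokiol libraries were all lower by a small step (-0.37 ± 0.14). Neighbouring groups in its order of levels all overlapped.

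**Figure D2:**
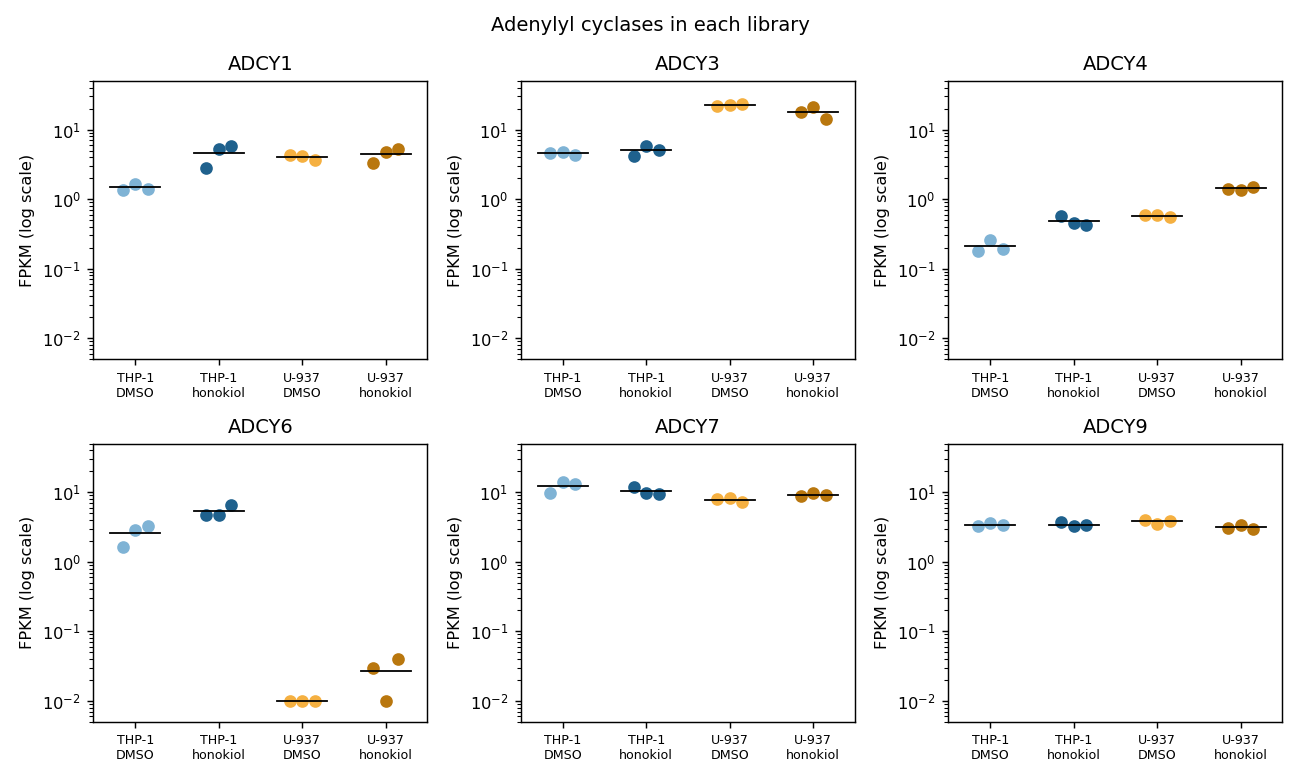
FPKM (vertical axis, log scale) of the 6 cyclases in each library (points), with the group mean as a bar, for THP-1 and U-937 with DMSO or honokiol (n = 3). ADCY1 and ADCY6 points with honokiol lie above those with DMSO in THP-1, ADCY4 points in both lines, and ADCY6 points of U-937 lie at 0.01 to 0.04 FPKM.

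RAPGEF3 encodes EPAC1, which cAMP binds directly and which activates Rap1. The gene lies at chr12:47734363-47771040 on the minus strand. THP-1 cells had 0.25, 0.18 and 0.38 FPKM with DMSO and 0.67, 0.78 and 0.99 FPKM with honokiol. U-937 cells had 0.20, 0.30 and 0.24 FPKM with DMSO and 0.68, 0.72 and 0.45 FPKM with honokiol. In both lines all honokiol libraries were above all DMSO libraries, with ratios of means of 3.01 and 2.50, and the lines overlapped with each treatment. On the log2 scale the THP-1 change was 1.52 ± 0.30, where the gene passed the limit on FPKM only through its 3 honokiol libraries and so had to differ. In U-937 it was not tested, and the fit without a limit gave 1.19 ± 0.27. SLC48A1, a heme transporter gene on the opposite strand, shares 83 exonic bases (0.687%) with RAPGEF3 and was also higher with honokiol, at 4.20 and 8.66 FPKM in THP-1 and 4.58 and 7.13 FPKM in U-937. The antisense gene AC004241.1 shares 15.2% of the exonic bases and stood at 0.407 and 0.443 FPKM in THP-1 and at 0.0300 and 0.0833 FPKM in U-937. What these overlaps add to the RAPGEF3 values was not tested.

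PDE4B, the phosphodiesterase induced in activated monocytes, lies at chr1:65792514-66374579 on the plus strand. It had 1.11, 1.37 and 1.44 FPKM in THP-1 with DMSO and 1.83, 1.77 and 2.23 FPKM with honokiol, without overlap and with a log2 fold change of 0.52 ± 0.16. In U-937 it had 3.43, 1.78 and 2.76 FPKM with DMSO and 1.99, 3.15 and 0.76 FPKM with honokiol. These libraries scattered widely and overlapped, giving -0.54 ± 0.47. PDE4D, at chr5:58969038-60488098 on the minus strand, was level across the groups. Its FPKM was 0.85, 0.59 and 0.66 in THP-1 with DMSO, 0.76, 0.64 and 0.66 in THP-1 with honokiol, 0.57, 0.77 and 0.76 in U-937 with DMSO and 0.41, 0.80 and 0.63 in U-937 with honokiol. All groups of PDE4D overlapped. Of the 4 PDE4 genes, PDE4A (52.3%) and PDE4B (30.9%) led the summed PDE4 level of 4.22 FPKM in DMSO-treated THP-1 cells, whereas PDE4B alone held 75.6% of 3.46 FPKM in U-937. With honokiol the THP-1 shares were 36.9% for PDE4A and 46.7% for PDE4B at a sum of 4.19 FPKM.

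CREM, a relative of CREB, makes activators from its upstream promoters and the short repressor ICER from an internal promoter that cAMP induces. It lies at chr10:35126791-35212958 on the plus strand, and the gene-level values here do not separate these products. THP-1 cells had 0.37, 0.50 and 0.52 FPKM with DMSO and 0.56, 0.77 and 0.74 FPKM with honokiol, just clear of overlap (log2 fold change 0.52 ± 0.25). U-937 cells had 1.52, 1.44 and 1.19 FPKM with DMSO and 1.14, 1.73 and 2.0 FPKM with honokiol, which overlapped (0.14 ± 0.26). With DMSO all U-937 libraries were above all THP-1 libraries, 2.99 times on the means and 1.53 ± 0.28 on the log2 scale. Of the 30 RefSeq windows found for 8 of the 10 genes, the full palindrome TGACGTCA stood only in 2 overlapping windows at the internal start sites of CREM, against 1.85% of all windows. The core TGACG stood in 7 of the 30 windows, of 4 genes (ADCY1, ADCY3, PDE4D and CREM), beside 24.6% of all windows. The 2 ADCY1 windows overlap and hold the same site, as do the 2 CREM windows with the palindrome. An upstream and an internal window of CREM are shown for comparison, with the core in capitals in the former and the full palindrome in the latter.
CREM upstream chr10:35126977-35127276 (plus strand): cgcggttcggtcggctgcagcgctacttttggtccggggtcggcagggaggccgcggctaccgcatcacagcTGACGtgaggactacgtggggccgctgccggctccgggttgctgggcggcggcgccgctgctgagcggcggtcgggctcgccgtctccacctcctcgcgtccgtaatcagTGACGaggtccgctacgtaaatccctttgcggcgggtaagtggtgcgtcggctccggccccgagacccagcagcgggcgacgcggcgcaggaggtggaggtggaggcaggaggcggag
CREM internal chr10:35195652-35195951 (plus strand): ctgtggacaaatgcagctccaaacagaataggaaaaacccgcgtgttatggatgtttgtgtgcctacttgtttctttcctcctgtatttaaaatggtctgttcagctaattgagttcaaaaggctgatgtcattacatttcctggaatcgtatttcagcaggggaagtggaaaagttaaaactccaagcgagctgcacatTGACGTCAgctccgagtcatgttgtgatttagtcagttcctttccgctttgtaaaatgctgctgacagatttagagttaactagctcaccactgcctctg

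**Figure D3:**
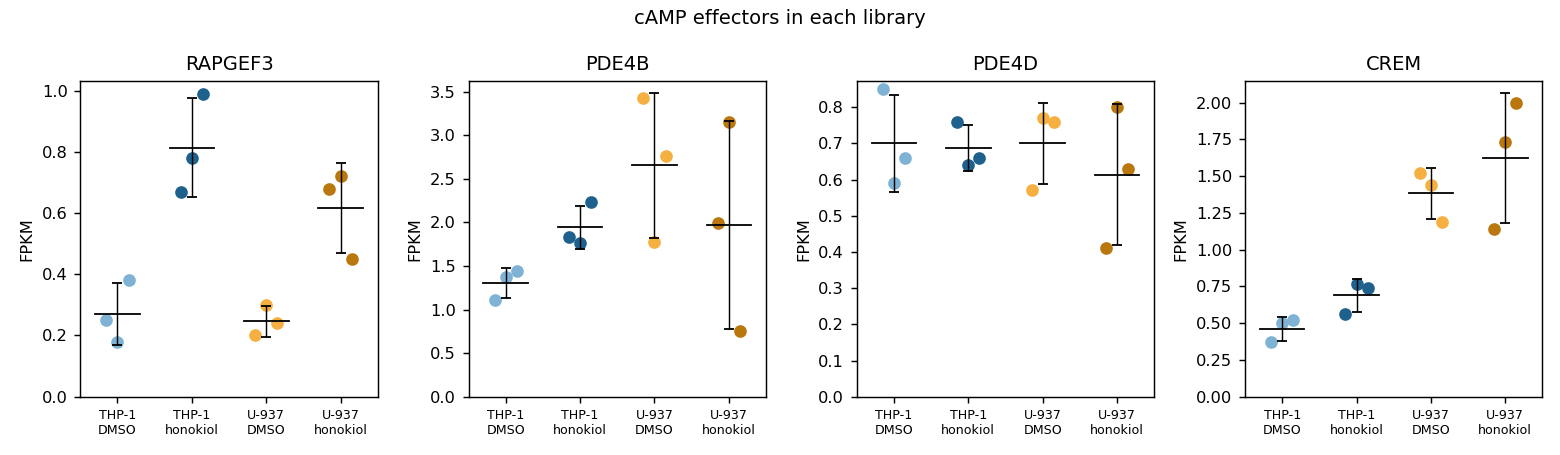
FPKM (vertical axis) of RAPGEF3, PDE4B, PDE4D and CREM in each library (points), with the group mean ± SD (bars), for THP-1 and U-937 with DMSO or honokiol (n = 3). RAPGEF3 points with honokiol lie above those with DMSO in both lines, and all groups of PDE4D overlap.

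Counted together, 6 of the 10 genes had no overlap between honokiol and DMSO libraries in THP-1 and all 6 were higher with honokiol (ADCY1, ADCY4, ADCY6, RAPGEF3, PDE4B and CREM). In U-937 5 of 10 did not overlap, of which ADCY4, ADCY7 and RAPGEF3 were higher and ADCY3 and ADCY9 lower. Over all genes tested, 20.6% (THP-1) and 24.2% (U-937) did not overlap. By the sign of their log2 fold change, 1897 of these were higher and 1114 lower with honokiol in THP-1. In U-937 2282 were higher and 1034 lower. The members' counts include ADCY4 in THP-1 and RAPGEF3 in U-937, which were under the limit. Among tested members 5 of 9 and 4 of 8 did not overlap. The 5 of THP-1 include RAPGEF3, which passed the limit only through its honokiol libraries and so had to differ. It is also among the THP-1 members counted by unadjusted p-value and by DESeq2 below. A gene was called where the adjusted p-value of edgeR's quasi-likelihood test was under 0.05 and the log2 fold change was over 1 in size. In THP-1 0 of 9 tested members were called, against 0.0411% of 14600 genes, and 4 of 9 had an unadjusted p-value under 0.05 against 13.1%. In U-937 0 of 8 were called, against 0.0947% of 13726 genes, and 3 of 8 (ADCY4 higher, ADCY3 and ADCY9 lower) had an unadjusted p-value under 0.05 against 16.7%. DESeq2 called RAPGEF3 and ADCY1 in THP-1, among 247 of 14600 genes, and ADCY4 in U-937, among 224 of 13726. With honokiol replicate 1 left out, edgeR called ADCY1 in THP-1, among 43 of 14233 genes. One edgeR fit of all 12 libraries called ADCY1 in THP-1, among 24 of 14600 genes, and ADCY4 in U-937, among 78 of 13726. Without DMSO replicate 1, 5 of 9 tested members in THP-1 had an unadjusted p-value under 0.05, beside 1899 of 14416 genes. In U-937 2 of 8 did, beside 2212 of 13461 genes. The median log2 fold change over the tested members was 0.52 for THP-1, beside -0.0011 over all genes, and -0.12 for U-937, beside 0.0164. Since the members were chosen with these contrasts known, nothing is read from their shares.

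Honokiol was also compared with DMSO replicate 1 left out. In THP-1 the log2 fold change was then 1.59 ± 0.31 for ADCY1, 1.52 ± 0.35 for RAPGEF3, 0.45 ± 0.16 for PDE4B and 0.43 ± 0.25 for CREM. It was 0.13 ± 0.17 for ADCY3 and -0.02 ± 0.13 for ADCY9. PDE4D, at -0.10 ± 0.22 with the library, stood at 0.13 ± 0.18 without it. In U-937 the values without it were 1.26 ± 0.19 for ADCY4, -0.44 ± 0.17 for ADCY3, -0.29 ± 0.13 for ADCY9 and 0.20 ± 0.12 for ADCY7. PDE4B there went from -0.54 to -0.28 ± 0.53, PDE4D from -0.27 to -0.38 ± 0.29, CREM from 0.14 to 0.24 ± 0.28 and ADCY1 from 0.04 to 0.10 ± 0.22.

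Between the lines with DMSO, 7 of 10 genes did not overlap, against 57.6% of all genes tested. ADCY1, ADCY3, ADCY4, PDE4B and CREM were higher in U-937, and ADCY6 and ADCY7 were higher in THP-1. ADCY1, ADCY3, ADCY4, ADCY6 and CREM, 5 of 9 tested, were called, against 32.4% of 14617 genes, and 7 of 9 had an unadjusted p-value under 0.05 against 54%. ADCY4 passed the limit there only through U-937 and ADCY6 only through THP-1, so both had to differ. PDE4B, with a log2 difference of 0.98 ± 0.28, was just under the fold threshold. The called members nearest above it were ADCY1, at 1.40 ± 0.17, and ADCY4, at 1.41 ± 0.31. Without DMSO replicate 1 of both lines, 7 members were tested and 3 (ADCY1, ADCY3 and CREM) called, beside 2831 of 12281 genes. ADCY4 and ADCY6 then had too few libraries over the limit. The log2 differences were then 1.28 ± 0.29 for CREM, 1.28 ± 0.19 for ADCY1, 0.60 ± 0.26 for PDE4B and -0.91 ± 0.15 for ADCY7.

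The response to honokiol, U-937 minus THP-1, differed most for ADCY1, by -1.57 ± 0.35 on the log2 scale, then for PDE4B by -1.07 ± 0.56, ADCY3 by -0.52 ± 0.22 and ADCY7 by 0.43 ± 0.20. For ADCY4 (0.04 ± 0.32) and RAPGEF3 (-0.31 ± 0.42) the difference was smaller than its own SE. None of the 10 genes had an adjusted p-value under 0.05 by edgeR, against 0.111% of 16283 genes, and ADCY1 and ADCY3 had an unadjusted p-value under 0.05, against 9.37%. DESeq2 called ADCY1, among 240 of 16283 genes, as did edgeR without THP-1 honokiol replicate 1, among 10 of 16077. Without DMSO replicate 1 of both lines the difference was -1.49 ± 0.42 for ADCY1, -0.74 ± 0.63 for PDE4B, -0.58 ± 0.25 for ADCY3, 0.59 ± 0.19 for ADCY7, 0.16 ± 0.34 for ADCY4 and -0.41 ± 0.48 for RAPGEF3.

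**Figure D4:**
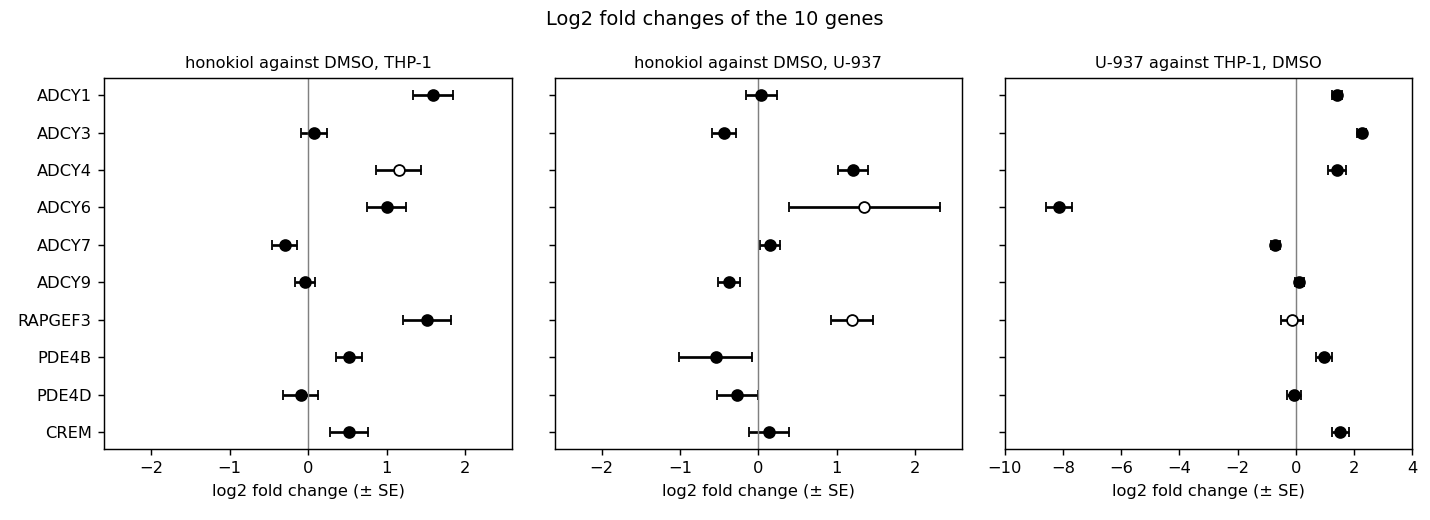
Log2 fold change ± SE (horizontal axis) of the 10 genes (vertical axis) by edgeR for honokiol in THP-1, honokiol in U-937 and U-937 against THP-1 with DMSO, the last on a wider axis. Open points come from the fit without a limit on FPKM, and ADCY6 of U-937 rests on counts of 4 to 24.

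Beyond the 10 genes, 85 of 86 listed genes of the cAMP pathway were in the table. By edgeR 0 of 57 tested genes were called with honokiol in THP-1 and 0 of 52 in U-937, beside 0.0411% and 0.0947% of all genes. Unadjusted p-values under 0.05 were found for 10 in THP-1 (4 higher, 6 lower) and for 14 in U-937 (3 higher, 11 lower), beside 13.1% and 16.7% of all genes. Their median log2 fold changes were -0.12 and -0.04. The phosphodiesterase PDE7A had 3.95, 6.71 and 6.18 FPKM with DMSO and 10.13, 9.40 and 8.40 FPKM with honokiol in THP-1, and 4.89, 6.70 and 8.75 against 15.53, 10.81 and 11.59 FPKM in U-937. Its log2 fold changes were 0.69 ± 0.18 and 0.82 ± 0.22, with edgeR adjusted p-values of 0.227 and 0.148. The histamine H2 receptor HRH2 was lower without overlap in both lines (-0.76 ± 0.26 and -0.47 ± 0.18, edgeR adjusted p = 0.306 and 0.262), as were the protein kinase A regulatory subunit PRKAR2B (-0.36 ± 0.15 and -0.77 ± 0.24) and the anchoring protein AKAP8 (-0.37 ± 0.14 and -0.40 ± 0.14).

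GNAS, which encodes Gsα, stood at 41.6 FPKM in THP-1 and 21.8 FPKM in U-937 with DMSO, and the inhibitory GNAI2 at 94.4 and 68.3 FPKM. With honokiol 0 of 11 tested Gs-coupled receptors were called in THP-1 and 0 of 7 in U-937. The adenosine receptor gene ADORA2A was over the limit in THP-1 only through its honokiol libraries and so had to differ (log2 fold change 1.99 ± 0.62), with honokiol replicate 1 at 2.68 FPKM far above the others at 0.58 and 0.67. Among the CREB targets, 0 of 6 tested were called in THP-1 and 0 of 7 in U-937. DUSP1, a phosphatase of MAP kinases, gave 1.08 ± 0.28 in THP-1 (edgeR adjusted p = 0.215) and 0.26 ± 0.22 in U-937. The clock gene PER1 had 0.45 ± 0.23 in THP-1 and -0.68 ± 0.17 in U-937 (edgeR adjusted p = 0.434 and 0.142). RAP1B, a Rap1 GTPase that EPAC1 acts on, had 15.42, 11.62 and 13.51 FPKM with DMSO and 8.90, 9.44 and 9.23 FPKM with honokiol in THP-1 (-0.62 ± 0.16, edgeR adjusted p = 0.215). In U-937 its libraries overlapped (-0.02 ± 0.12).

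**Figure D5:**
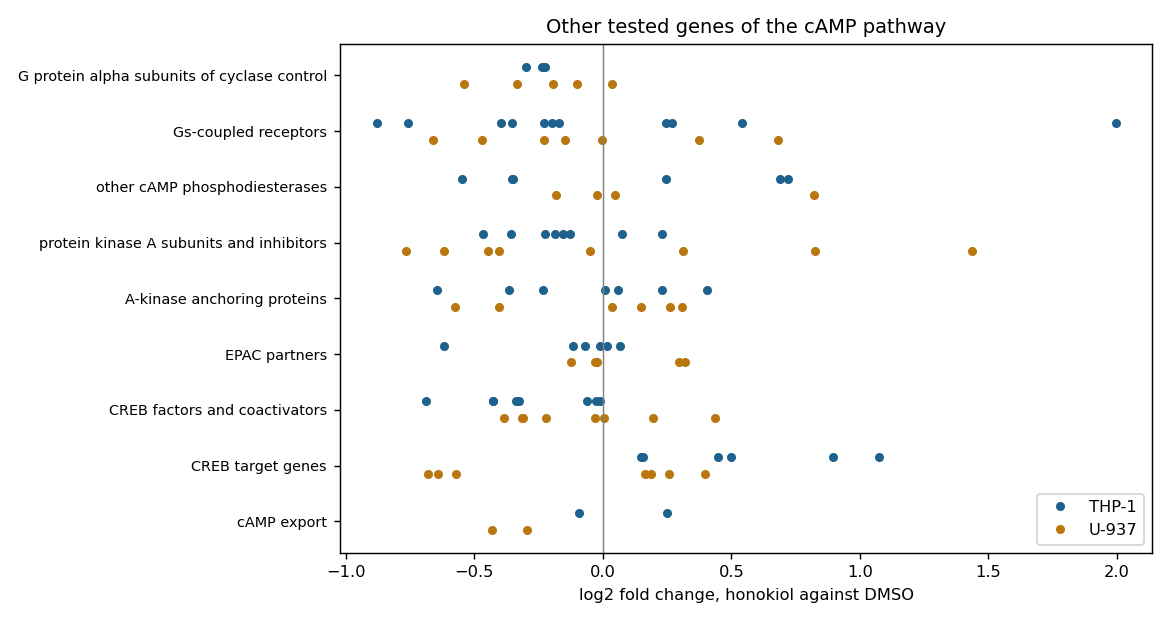
Log2 fold change with honokiol against DMSO by edgeR (horizontal axis) of the tested genes of 9 cAMP lists (vertical axis), 1 point per gene, for THP-1 and U-937. No point was called, and ADORA2A of THP-1 lies farthest to the right at 1.99.

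Between the lines with DMSO, 21 of 54 tested pathway genes were called, 12 higher and 9 lower in U-937, beside 32.4% of all genes. ADORA2B, PDE4A, RAP1GAP and AKAP7 passed the limit only through THP-1, and GNAZ and GNAL only through U-937, so these had to differ and are given as values. NR4A1 and SIK1 reached it in only 2 THP-1 libraries each. Of the other phosphodiesterases 4 of 5 tested were called. PDE8A was higher in U-937 (2.26 ± 0.18, edgeR adjusted p = 3.11e-05), and PDE1B, PDE3B and PDE4A were lower, the last with a log2 difference of -4.38 ± 0.31. Of 7 tested receptors, the prostaglandin E2 receptor PTGER2 was higher in U-937, and PTGER4, ADRB1 and ADORA2B were lower, with ADORA2B at 5.32 FPKM in THP-1 and 0.12 FPKM in U-937. GNAZ, an inhibitory G protein subunit (4.20 ± 0.32), and GNAL, a stimulatory one (1.81 ± 0.26), were higher in U-937. Among EPAC partners RAP2A was higher in U-937 (3.49 ± 0.33), and RAP1B and RAP1GAP were lower, RAP1GAP with -5.90 ± 0.33. The kinase PRKX and the regulatory subunit PRKAR1B were higher in U-937, the anchoring protein AKAP7 lower, and the CREB coactivator CRTC1 higher. Of 6 tested CREB targets NR4A1, SIK1 and DUSP1 were called, all higher in U-937, by 1.48 ± 0.32, 1.67 ± 0.35 and 1.44 ± 0.31. The cAMP exporter ABCC4 was higher by 1.85 ± 0.19 (edgeR adjusted p = 0.000109).

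For the 3 members with the highest mean FPKM, the genes with the most similar pattern over the 12 libraries were sought by Pearson's r of log2(FPKM + 0.5), among genes with a mean FPKM of at least 1. ADCY3 was nearest to FERMT1 (0.994), TMEM163 (0.991) and TMEM158 (0.991), all of them higher in U-937. ADCY7 was nearest to SLC2A5 (0.951), LTB (0.947) and WBP1L (0.941), and ADCY1 to NOTCH2 (0.920), FZD5 (0.916) and SPIRE1 (0.914). The 12 libraries fall into 4 groups and share the gap between the lines.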

How the data were processed

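The deposited table gives each gene in each library as an FPKM (2 decimals), which the authors scaled to transcript length and library size. It also holds an estimated whole-number count, which the authors did not normalize. The submitters' processing notes name HISAT2 2.0, StringTie 1.3.0, Bowtie 0.12.2 and the mouse build mm8, without roles. The identifiers and coordinates in the table are human, and 6 of the 10 loci equal those of GENCODE 29 (GRCh38). The strand setting of the counting is not given in the sources used here. Samples were grouped by the line and treatment in their labels.

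Counts were tested with edgeR 4.0.16 (R 4.3.3, quasi-likelihood test, TMM, Benjamini-Hochberg over all genes tested) on genes that reached an FPKM of 0.5 in 3 or more libraries of the fit. Honokiol was tested within each line, the lines were compared with DMSO, and the difference in response was fitted as an interaction over 12 libraries and called on the adjusted p-value alone. Alternatives were RLE size factors, no limit and a limit of 1 on FPKM, DESeq2 1.42.0, limma-trend 3.58.1 on log2(FPKM + 0.5) and log2(FPKM + 0.1), counts divided by 4, a replicate block, one fit of 12 libraries and each library left out. Leaving out DMSO replicate 1 of both lines was added after the values were seen. The scripts were tested on simulated data.

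The members, the pathway and marker lists and the tests were chosen with earlier results of these data known. Pathway genes are named where called, where they had an unadjusted p-value under 0.05 without overlap in a contrast, or where among the 2 highest of their list, and not all such genes are printed. Promoter windows come from RefSeq (GRCh38.p14). Results for some genes of these lists are not reported here.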

Additional observations from a re-analysis of the deposited data

How the results depend on the processing

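The number of genes called with honokiol depended strongly on the test. In THP-1 the 6 genes became 0 without a limit on FPKM, 1 with a limit of 1, 247 with DESeq2, 0 with limma on either pseudocount, 24 in one fit of 12 libraries and 0 to 43 when a library was left out, 43 of them without honokiol replicate 1. In U-937 the 13 genes became 224 with DESeq2, 78 in one fit of 12 libraries and 0 to 6 with a library left out. For the difference in response the 18 genes became 240 with DESeq2, 2 and 1 with limma on log2(FPKM + 0.5) and log2(FPKM + 0.1), 0 with counts divided by 4, 7 without DMSO replicate 1 of both lines and 1 to 22 with a library left out. Between the lines the 4730 genes became 2831 without DMSO replicate 1 of both lines, a fit with fewer libraries. Otherwise the cause was not tested.

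Same-numbered libraries correlated in their deviations at -0.202 to 0.137 within a line and at 0.193, 0.059 and 0.156 between the DMSO groups of the lines, not over 0.1 for every pair, and the fits without the block were kept. With the replicate block edgeR called 0 genes in THP-1, in U-937 and for the difference in response (1641, 1516 and 1191 at an unadjusted p-value under 0.05), and the same 5 members were called between the lines.

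Of the members' log2 values, 127 of 129 in THP-1, 113 of 119 in U-937, 115 of 125 between the lines and 203 of 208 for the difference in response kept their direction and side of the threshold, or moved by less than the replicate SD. Between the lines ADCY4 and CREM were no longer called with limma on log2(FPKM + 0.5), and PDE4B was called in 3 alternatives. PDE4D, not called at -0.075, changed sign to 0.0015 and 0.0030 with limma and 0.20 without both DMSO replicates 1, and ranged from -0.28 to 0.077 with a library left out, above 0 (0.074 and 0.077) without replicate 1 of THP-1 or of U-937. Depth limits ADCY6 in U-937, and ADCY4 and RAPGEF3 lie near or under the limit on FPKM.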
